A study of Mus musculus with 6 samples.

Results

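Skeletal muscle genes were followed in RNA sequencing of inguinal white adipose tissue, a fat depot under the skin of the groin. The set was a list of 31 symbols for contractile proteins, calcium handling proteins and energy enzymes of muscle fibres, matched to the table by Ensembl identifier. Of these, 30 were among the 25894 genes of the table, and Tnnc2 was not analysed here. They were divided into 13 genes typical of fast fibres, 6 typical of slow fibres and 11 shared by fibre types. The mice were female C57BL/6N, described for the whole series as 15 weeks old, and inguinal fat was taken after 10 h of fasting. Per the labels, sleep of 3 mice was fragmented for 8 weeks and left to recover for 2 weeks (fragmented, recovered 1 to 3), and 3 were labelled only as control (control 1 to 3). Each library came from 1 mouse, and fasting applied to both groups.

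Skeletal muscle fibres contract when calcium released from the sarcoplasmic reticulum through the ryanodine receptor binds troponin and lets myosin pull on actin. Fibre types differ in which myosin heavy chain, light chain and troponin genes they express: Myh4 marks the fastest, glycolytic type IIB fibres, Myh1 type IIX, Myh2 the more oxidative type IIA and Myh7 slow type I. White fat itself is not a contractile tissue, and inguinal fat lies against the muscle of the body wall and thigh and under the thin sheet of skin muscle. In bulk tissue, fewer cells of a type and less RNA per cell cannot be told apart.

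The genes of 3 fast heavy chains lie side by side on chromosome 11, and they had different patterns over the libraries. Part of the DNA before their starts is shown, and its part in these patterns was not tested. Acta1, the most abundant member, and Tnni1, a slow gene with almost no reads, are shown beside the heavy chain genes. The sequences are RefSeq promoters of build GRCm38.p6, 5′ to 3′ on the gene's strand (plus for Myh4, Myh1, Myh2 and Tnni1, minus for Acta1), from base -250 to base -51 counted back from the listed start. Capitals mark CAGCTG, an E-box of the kind bound by myogenic factors, TATAAA on either strand, and the MEF2 consensus. In Myh4 and Myh1 the MEF2 match overlaps a TATAAA of the other strand. The bases nearest the starts are not shown, and they hold a TATAAA match at -31 in Myh4, -32 in Myh1 and -7 in Acta1. The windows are Myh4 at chr11:67237562-67237761, Myh1 at chr11:67199852-67200051, Myh2 at chr11:67170777-67170976, Acta1 at chr8:123894826-123895025 and Tnni1 at chr1:135799171-135799370, the first of 2 listed starts. The first bases of the Myh4 window overlap an exon of the antisense gene Myhas.
Myh4: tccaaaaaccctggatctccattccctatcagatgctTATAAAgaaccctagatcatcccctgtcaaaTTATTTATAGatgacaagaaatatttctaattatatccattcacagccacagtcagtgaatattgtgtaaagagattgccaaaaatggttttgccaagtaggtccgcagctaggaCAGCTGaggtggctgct
Myh1: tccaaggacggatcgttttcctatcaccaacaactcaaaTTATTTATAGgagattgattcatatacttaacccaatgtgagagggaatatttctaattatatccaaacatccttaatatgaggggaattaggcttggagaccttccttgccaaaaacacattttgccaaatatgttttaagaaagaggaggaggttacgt
Myh2: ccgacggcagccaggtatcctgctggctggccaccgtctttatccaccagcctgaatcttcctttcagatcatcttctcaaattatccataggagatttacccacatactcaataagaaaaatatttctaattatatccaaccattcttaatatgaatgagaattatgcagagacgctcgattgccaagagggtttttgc
Acta1: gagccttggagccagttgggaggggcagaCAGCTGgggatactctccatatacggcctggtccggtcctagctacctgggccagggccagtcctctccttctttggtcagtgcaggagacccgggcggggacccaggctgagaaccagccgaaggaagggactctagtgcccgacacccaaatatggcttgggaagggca
Tnni1: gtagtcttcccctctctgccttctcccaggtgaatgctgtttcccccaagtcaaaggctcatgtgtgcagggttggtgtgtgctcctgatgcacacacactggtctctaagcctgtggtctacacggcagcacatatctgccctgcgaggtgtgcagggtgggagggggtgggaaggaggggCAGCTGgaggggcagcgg

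Promoters were listed for 24 of the 30 genes, with 30 starts. In the 250 bases before the start, CAGCTG was found on either strand in 14 of these 30 promoters (46.7%), against 13.0% of all 32851 promoters. The MEF2 consensus was found in 5 (16.7%), against 2.92% of all promoters. These were the starts of Myh1, Myh4, Ttn and Xirp2 and 1 of the 2 starts of Pvalb, and 0 of the 9 slow promoters held it. TATAAA was found in 6 of the 30, against 12.4% of all promoters. A match is a description of letters, several starts of a gene can share them, and no binding was measured.

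Adipoq, the adiponectin gene, had normalised values from 17886 to 46595 and marked every library as fat. It was highest in fragmented, recovered 1, as were 6 of 9 adipocyte genes (66.7%), against 18.8% of all genes tested. The summed value of these 9 genes ran from 143333 in control 2 to 554148 in fragmented, recovered 1. A normalised value is the number of reads of a gene divided by 1 size factor per library. Libraries held 15610201 to 19703569 recovered reads. B cell genes were high in fragmented, recovered 2 and controls 2 and 3, with summed values of 8326 to 21133 over 9 genes, and between 52.4 and 78.8 in the other libraries. Across all genes, Spearman's rho of a library's deviation from the gene mean on the length of the longest transcript was 0.19 in control 2 and 0.29 in control 3, 0.06 in fragmented, recovered 3, and -0.23 to -0.19 in the other libraries.

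Muscle transcripts were found in fat of both groups, and in each group 1 library far exceeded the other 2. Fragmented, recovered 1 had 113711 reads from the 30 genes, 0.620% of its reads (95% exact binomial interval 0.616% to 0.623%). Fragmented, recovered 2 had 0.0247% (0.0240% to 0.0254%) and fragmented, recovered 3 had 0.00627% (0.00591% to 0.00664%). Control 2 had 14606 reads, 0.0936% (0.0921% to 0.0951%). Control 1 had 0.0117% (0.0112% to 0.0122%) and control 3 had 823 reads, 0.00484% (0.00452% to 0.00518%). The groups overlapped, and the share in fragmented, recovered 1 was 128-fold that in control 3. These intervals cover counting error only, since reads amplified by PCR are not independent molecules.

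**Figure D1:**
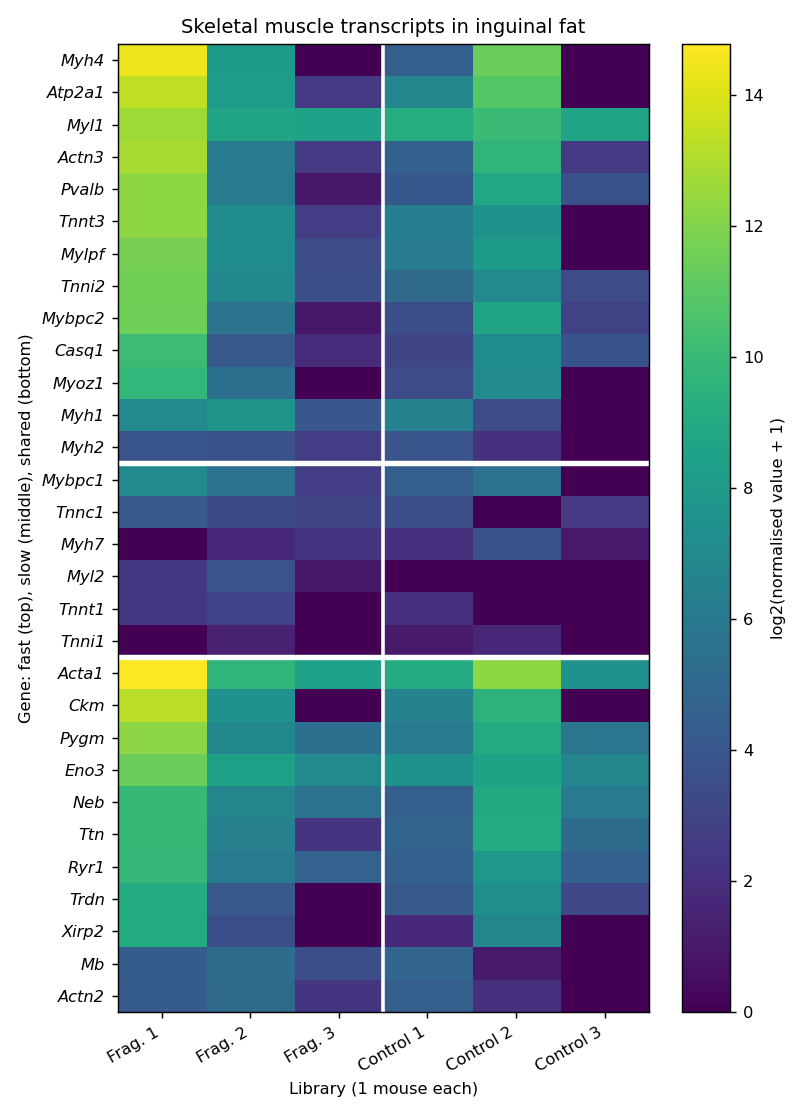
Each row is 1 of the 30 genes and each column 1 library, with colour giving log2(normalised value + 1); fast genes are at the top, slow in the middle and shared at the bottom. Fragmented, recovered 1 (Frag. 1) and control 2 are brightest for most fast and shared genes, while slow genes other than Mybpc1 are dark in all 6 libraries.

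Of the 29 genes with a mean value of at least 1, 22 were highest in fragmented, recovered 1, or 75.9%, against 18.8% of all 22290 genes tested. Fragmented, recovered 1 and control 2 were the highest pair of libraries for 20 of the 29, or 69.0%, against 4.44% of all genes. This held for 11 of 13 fast genes, 9 of 11 shared genes and 0 of 5 slow genes. The other 7 genes were highest elsewhere: Myh1, Mb, Actn2, Myl2 and Tnnt1 in fragmented, recovered 2, Myh2 in control 1 and Myh7 in control 2.

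Among the thin filament and shared genes, Acta1, the skeletal muscle actin, had values of 28266, 827 and 351 in fragmented, recovered 1 to 3 and of 538, 5012 and 169 in controls 1 to 3. In fragmented, recovered 1 it was the 48th most abundant gene of the table. Ckm, the creatine kinase that buffers ATP in muscle, had 9949, 180 and 0 against 94.9, 754 and 0. Both genes were highest in fragmented, recovered 1, next in control 2, and the groups overlapped. Pygm, the muscle glycogen phosphorylase, had 4686, 120 and 41.5 against 70.3, 524 and 55.7, the same order for the highest 2 libraries.

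The remaining shared genes encode large filament proteins and proteins of calcium release. Ttn, the giant spring protein, had values of 952, 87.2 and 3.61 in fragmented, recovered 1 to 3 and of 26.6, 546 and 36.8 in controls 1 to 3. Neb, the ruler protein of the thin filament, had 977, 105 and 47.0 against 21.3, 512 and 70.2, and Ryr1, the calcium release channel, had 914, 67.5 and 24.4 against 22.4, 235 and 22.3. For Ttn and Neb control 2 was within 1.91-fold of fragmented, recovered 1. Trdn, which anchors the calcium store beside the release channel, had 555, 16.7 and 0 against 17.1, 161 and 7.80. Xirp2, an actin-binding protein, had 541, 10.6 and 0 against 2.13, 111 and 0.

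Among fast genes, Myh4 had values of 21859.85, 263 and 0 in fragmented, recovered 1 to 3 and of 20.3, 2734 and 0 in controls 1 to 3. Each group therefore held 1 library with abundant Myh4 and 1 library with none detected, where 0 reads allow a value of up to 2.71 in fragmented, recovered 3 and 3.34 in control 3. Atp2a1, the calcium pump that refills the sarcoplasmic reticulum of fast fibres, had 10781, 281 and 4.51 against 103, 1857 and 0. Actn3, the fast Z-disc actinin, had 7361, 69.8 and 4.51 against 23.4, 817 and 4.46. Pvalb, a calcium buffer of fast fibres, had 4995, 66.0 and 0.90 against 16.0, 445 and 12.3. These genes kept the same order of libraries at the top, and in the lowest libraries they rested on 11 reads or fewer.

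The thin filament switch genes of fast fibres followed. Tnni2, the inhibitory troponin subunit, had 3160, 117 and 10.8 against 33.0, 125 and 10.0. Tnnt3, the tropomyosin-binding subunit, had 5001, 143 and 5.42 against 81.0, 184 and 0. Fragmented, recovered 2 and control 2 lay close together for these genes, whereas for Myh4 control 2 was well above fragmented, recovered 2. Mylpf, the fast regulatory light chain, had 3390, 146 and 9.93 against 65.0, 262 and 0. Casq1, the calcium store protein, Mybpc2 and Myoz1 were also highest in fragmented, recovered 1, at 1147, 2943 and 869, and next highest in control 2, at 148, 393 and 137.

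Not every member vanished where Myh4 and Ckm were at 0. Myl1, an essential light chain of fast myosin, reached 349 in fragmented, recovered 3 and 397 in control 3, and had 6468, 393, 579 and 1098 in fragmented, recovered 1 and 2 and controls 1 and 2. Its highest library was 18.5-fold its lowest. Eno3, the muscle form of enolase, had 133 and 107 in those libraries, with a range of 25.7-fold, and Acta1 had a range of 167-fold. Ryr1 and Neb had ranges of 41.0-fold and 45.8-fold. For Myh4 the highest library was at least 6541-fold higher than the libraries at 0, counting 3 reads per library as the limit. In control 3, 15 of the 30 genes had no read, and in fragmented, recovered 3, 7 had none.

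Apart from Mybpc1, slow fibre genes had at most 17 reads in any library. Tnni1, the slow inhibitory troponin, had 0, 2 and 0 reads in fragmented, recovered mice and 1, 2 and 0 in controls, and was the only member below a mean value of 1. In fragmented, recovered 1, with 3048 reads of Tnni2 and 0 of Tnni1, the fast gene was at least 1521-fold higher per length of the longest transcript. Myh7, the slow heavy chain, had 0, 2.28 and 3.61 against 3.20, 12.4 and 1.11, and so it was at 0 in the library richest in Myh4. Tnnc1, the slow and cardiac calcium-binding troponin, had 16.6, 9.10 and 7.22 against 10.7, 0 and 4.46. Tnnt1 had 4.15, 6.83 and 0 against 3.20, 0 and 0. The groups overlapped for these 4 genes.

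Mybpc1, named the slow myosin-binding protein C and also made in fast fibres, stood out from the slow list with 132, 47.8 and 5.42 against 20.3, 44.1 and 0. Summed per length of the median protein-coding transcript, slow genes made 0.192% of the fast and slow total in fragmented, recovered 1, 4.81% in fragmented, recovered 2 and 4.44% in fragmented, recovered 3. In controls 1 to 3 the share was 3.15%, 1.02% and 1.63%. The share was lowest in fragmented, recovered 1. Control 3 had 5 slow reads, 1.24% of its fast and slow reads (0.405% to 2.88%, exact binomial), an interval that holds the whole interval of control 2 (0.531% to 0.931%), so these 2 controls were not told apart. For control 2 it was 0.407% with the longest transcript, because the median length of the annotated Myh7 transcripts is 414 bases and that of the longest 6230. In fragmented, recovered 3 and control 3 most of the fast total was Myl1, and the share without it was 31.0% and 17.1%.

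The heavy chains gave a different composition in mice of the same group. Myh4 made 99.4% of the reads of the 4 adult heavy chain genes in fragmented, recovered 1 (99.3% to 99.5%, exact binomial) and 99.1% in control 2 (98.6% to 99.4%). It made 55.5% in fragmented, recovered 2 (51.5% to 59.5%) and 16.0% in control 1 (9.89% to 23.8%). In these libraries the rest was mostly Myh1, with 41.4% in fragmented, recovered 2 and 70.6% in control 1. The intervals of fragmented, recovered 2 and control 1 did not overlap those of the libraries rich in Myh4. In control 2 the Myh4 share per length of the median transcript was 93.4%, for the Myh7 length given above. In fragmented, recovered 3 there were 27 heavy chain reads, 17 of them Myh1 and 0 Myh4, and control 3 had 1 read, of Myh7. The longest transcripts of these genes differ little in length, and shares per length of the longest transcript in fragmented, recovered 2 were 55.8% for Myh4 and 41.2% for Myh1. The fast heavy chain genes are near copies of each other, so reads could have been split between them by the counting.

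**Figure D2:**
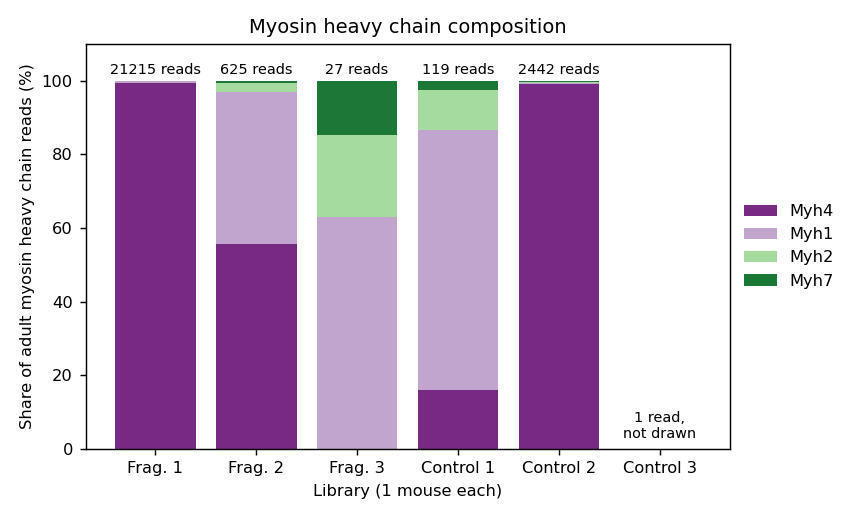
Bars give the share of reads of 4 adult myosin heavy chain genes (%) that came from each gene in each library, with the number of reads above. Myh4 makes almost the whole bar in Frag. 1 and control 2, while Myh1 makes 41.4% in Frag. 2 and 70.6% in control 1.

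The levels of Myh1 and Myh2 themselves did not follow Myh4. Myh1 had values of 121, 196 and 15.4 in fragmented, recovered 1 to 3 and of 89.5, 10.2 and 0 in controls 1 to 3. Per length of the longest transcript, Myh4 was 182-fold Myh1 in fragmented, recovered 1 and 272-fold in control 2, and 1.35-fold and 0.23-fold in fragmented, recovered 2 and control 1. Myh2 had 13.5, 12.1 and 5.42 against 13.9, 3.39 and 0, on 16 reads or fewer.

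Mb and Actn2 were, like Myh1, highest in fragmented, recovered 2 and low in control 2. Mb, the oxygen store myoglobin, had 19.7, 36.4 and 10.8 against 27.7, 1.13 and 0. Actn2, the actinin of all fibre types and of heart, had 18.7, 33.4 and 3.61 against 21.3, 3.39 and 0. Per length of the longest transcript, Ckm was 203-fold Mb in fragmented, recovered 1, 1.99-fold in fragmented, recovered 2 and 1.38-fold in control 1. Actn3 was 412-fold Actn2 in fragmented, recovered 1, 2.18-fold in fragmented, recovered 2 and 1.15-fold in control 1. Control 2, with 667 reads of Ckm and 723 of Actn3, had 1 read of Mb and 3 of Actn2.

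Genes of brown and beige fat, a tissue that also makes myoglobin, had their highest summed values in fragmented, recovered 2 and control 1, the highest libraries for Mb. Ucp1, the thermogenic uncoupling protein, had 135, 1475 and 801 in fragmented, recovered 1 to 3 and values of 1179, 268 and 128 in controls 1 to 3. Over 10 genes of that list the summed value was 1750, 5438 and 3896 against 5543, 1102 and 1320, with at most 2 genes at 0 in a library. The next highest library of that list, fragmented, recovered 3, had less Mb than fragmented, recovered 1, at 10.8 against 19.7. The part of brown and beige fat in the level of Mb was not tested. Of 8 tested genes of a developmental and cardiac list, 4 were highest in fragmented, recovered 2, against 13.4% of all genes, 2 in fragmented, recovered 1 and 1 each in controls 2 and 3. Gja5, a gap junction gene also made in vessels, had 122 to 222 over the 6 libraries, and Myl4, the atrial light chain, 12.3 to 100.89. Actc1, the cardiac actin, chosen after its values were seen, had 207, 19.7 and 12.6 against 11.7, 53.1 and 0, with fragmented, recovered 1 and control 2 highest. Tnni3, the cardiac inhibitory troponin, chosen after its values were seen, had 14.5, 41.0 and 12.6 against 10.7, 0 and 3.34. The embryonic and perinatal heavy chains Myh3 and Myh8 had at most 5 reads in any library.

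The 2 libraries rich in Myh4 differed from each other in a graded way. For 21 members with at least 20 reads in both, fragmented, recovered 1 was higher than control 2 in all 21, with a median of 7.29-fold. The ratio was 25.2-fold for Tnni2 and 27.1-fold for Tnnt3, whose longest transcripts have 768 and 1079 bases. Among members under 1500 bases it was lowest for Acta1, at 5.64-fold, and was 5.89-fold for Myl1. It was 7.99-fold for Myh4, 1.91-fold for Neb and 1.74-fold for Ttn, with a longest transcript of 106824 bases. Spearman's rho of this ratio on transcript length was -0.73 over the 21 genes, which are not independent replicates and share the same 2 libraries. Over all 13327 genes with that many reads it was -0.51. The median log2 ratio over all genes was 0.84 for those under 1500 bases and -0.63 for those of 5000 bases or more, and over the members it was 3.49 and 1.96. The part of transcript length in the differences between members was not tested.

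**Figure D3:**
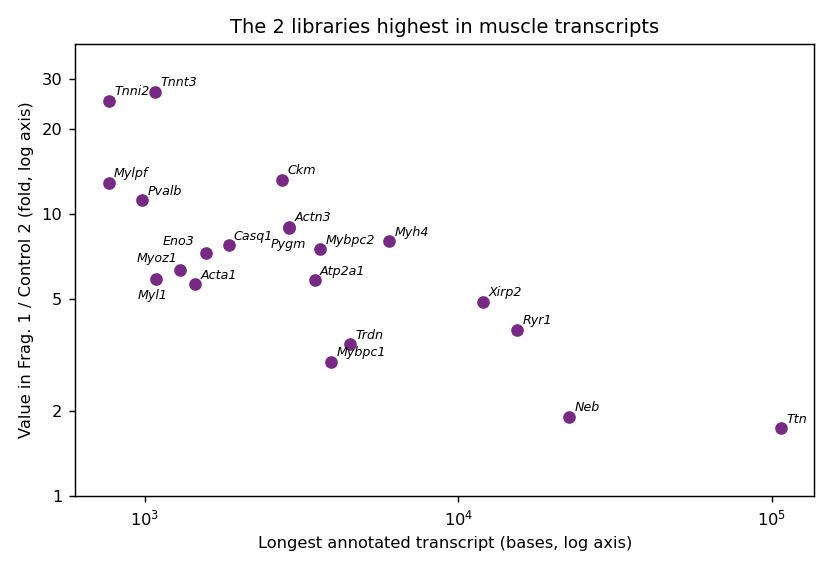
Each point is 1 of 21 members, with the length of its longest annotated transcript (bases, log axis) against its value in Frag. 1 divided by that in control 2 (fold, log axis). Genes under 1500 bases run from Acta1 at 5.64-fold to Tnnt3 at 27.1-fold, and the longest, Ttn and Neb, lie below 2-fold.

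The comparison of groups asked whether muscle transcripts in fat differed between fragmented, recovered mice and controls. By limma on log2(value + 1), 0 of the 29 members tested passed an adjusted p of 0.05 (Benjamini-Hochberg over all genes), as did 0 of 22290 genes (0%). At an unadjusted p under 0.05 there were 1201 genes with limma, and edgeR and DESeq2 also called 0 genes. Without control 1, limma called 844 genes and still 0 members, the smallest adjusted p of a member being 0.0556. With all 6 mice the smallest adjusted p of a member was 0.697. Differences were above 0 for 26 of 29 members, with a median of 1.41 on the log2 scale, against 51.6% of all genes and a median of 0.02. By list the median was 1.57 over 13 fast, 1.51 over 5 slow and 1.34 over 11 shared genes. Without fragmented, recovered 1 the differences were above 0 for 12 of 29 members and the median was -0.39. Without that mouse and control 2 they were above 0 for 24, with a median of 0.84, and without control 3 for 19, with 0.30. Without fragmented, recovered 3 and without control 2 the medians were 2.82 and 2.36, and 0 members passed by limma in any of these fits.

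For the 3 most abundant fast and the 3 most abundant shared genes the standard error exceeded the difference. Myh4 in fragmented, recovered mice averaged 7374 ± 12546 (SD, n = 3), and the controls averaged 918 ± 1573. By limma this was a difference of 2.21 on the log2 scale (SE 3.48, adjusted p = 0.844). For Acta1 the averages were 9815 ± 15981 and 1907 ± 2696 and the difference was 1.39 (SE 1.57). Atp2a1 had 2.14 (SE 2.91), Ckm 1.55 (SE 3.12), Pygm 1.17 (SE 1.51) and Myl1 0.61 (SE 0.96). Without fragmented, recovered 1 these 6 genes turned below 0, with Myh4 at -1.25 and Ckm at -1.63. Without control 3, Myh4, Atp2a1 and Ckm also turned below 0.

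Myh1, Myh2, Myh7, Mybpc1 and Tnnc1 kept their sign with any 1 mouse left out, but did not pass. Myh1 had a log2 difference of 2.87 (SE 1.51, adjusted p = 0.697 by limma), and 1.21 to 4.46 with each mouse left out. Myh2 had 1.41 (SE 1.05), Mybpc1 1.81 (SE 1.49) and Tnnc1 1.51 (SE 1.00), and Myh7 had -0.99 (SE 1.00). Leaving out fragmented, recovered 1 and control 2 together turned Myh7 to 0.38. An unadjusted p under 0.05 was reached by 1 member, Myl2, against 3.24% of all genes higher and 2.14% lower with such a p. Myl2, the slow and cardiac regulatory light chain, had 4, 17 and 1 reads in fragmented, recovered mice and 0 in all 3 controls. Counting 3 reads over the whole control group, the mean of fragmented, recovered mice was at least 5.42-fold higher. This bound covers counting error only and rests mostly on the 17 reads of fragmented, recovered 2. With 3 reads allowed in each control, as for the values below, it would be lower. Myl2 was also the 1 member whose values did not overlap, higher in each fragmented, recovered mouse, against 5.02% of all genes. In the other direction there were 0 members, against 3.58% of all genes. In fragmented, recovered 3 the Myl2 value of 0.90 was 1 read. For controls 1 to 3, 0 reads allow values of up to 3.20, 3.39 and 3.34, so Myl2 is not shown to be higher in that mouse. Myl2 passed the filter on low values only through the fragmented, recovered group.

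**Figure D4:**
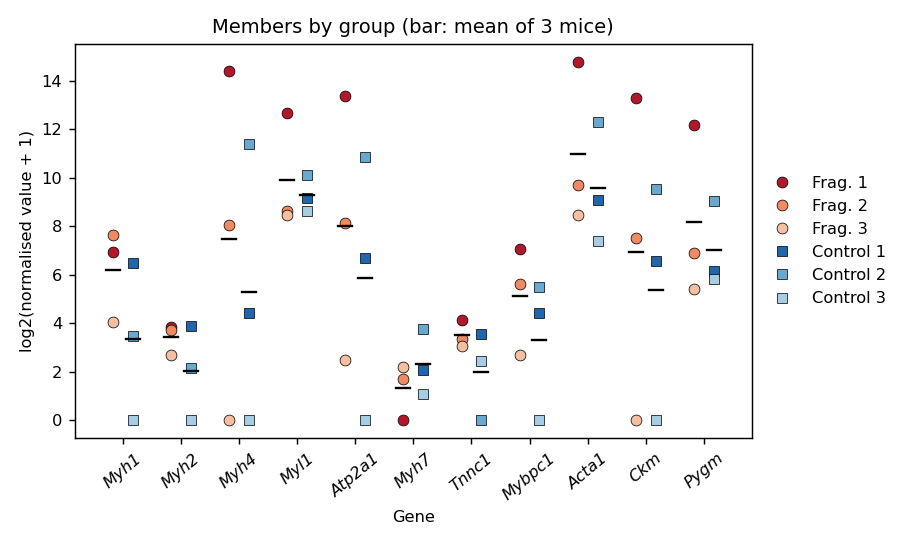
Points give log2(normalised value + 1) of 11 members in each library, circles for fragmented, recovered mice and squares for controls, with a bar at the mean of 3 mice. The groups overlap for every gene drawn, and for Myh4 each group runs from 0 to its highest library.

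Genes of muscle outside the 30 were read from further lists. Of 24 other sarcomere genes, 22 were highest in fragmented, recovered 1 (91.7%), as were 12 of 14 genes of calcium release and excitation, 9 of 11 of muscle metabolism and 4 of 5 ubiquitin ligases of muscle wasting, against 18.8% of all genes. The count was lower for genes of the fibre membrane, 6 of 11, with 3 highest in control 3 and 2 in fragmented, recovered 3. It was 3 of 6 for the neuromuscular junction and 3 of 5 for myogenic factors. Fragmented, recovered 1 and control 2 were the highest pair for 10 of the 24 sarcomere genes, 8 of the 14 calcium genes, 4 of the 11 metabolism genes and 0 of the membrane and junction genes. By limma 0 genes of these lists passed. Their most abundant genes were not restricted to muscle: Slc2a4, the insulin-responsive glucose transporter, had 1429 to 2452, Gys1, glycogen synthase, 1361 to 1957, and Fbxo32, a ubiquitin ligase, 633 to 1429 over the 6 libraries. Pdlim3 had 150 to 557, and Srl, of the sarcoplasmic reticulum, 79.5 to 616.

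Genes chosen after their values were seen gave both orders of the libraries. Trim63, the muscle RING-finger ubiquitin ligase, had 1274, 16.7 and 0 against 2.13, 102 and 0. Ampd1, the AMP deaminase of muscle, had 560, 8.34 and 0 against 1.07, 64.4 and 0, and Cacna1s, the voltage sensor of excitation, had 520.45, 19.7 and 0 against 5.33, 88.2 and 0. These 3 genes were, like Myh4, next highest in control 2. Tcap, the titin cap of the Z-disc, was next highest in fragmented, recovered 2, with 689, 37.2 and 2.71 against 6.39, 29.4 and 0, as was Cox6a2, a muscle subunit of cytochrome oxidase, with 120.26, 26.6 and 0.90 against 11.7, 3.39 and 0. Myf6, a myogenic factor of mature fibres, had 112 reads in fragmented, recovered 1, 2 each in fragmented, recovered 2 and control 1, and 0 in the other libraries, control 2 among them. Myod1, the factor of myoblasts, and Pax7, the marker of muscle stem cells, had at most 3 reads in a library. Mef2c, a factor also made by B cells, was highest in controls 2 and 3, at 3579 and 2492.

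Smooth muscle and nerve genes had other orders. Myh11, the smooth muscle heavy chain, had 1615, 1739 and 3058 in fragmented, recovered 1 to 3 and 1618, 991 and 1215 in controls 1 to 3, and so it was highest in a library where Myh4 was at 0. The summed value of 8 smooth muscle genes ran from 6064 to 11610 in fragmented, recovered mice and from 2791 to 7068 in controls. Of 7 nerve genes, 6 were highest in fragmented, recovered 1, with a summed value of 4994 there and of 2316 to 3114 elsewhere. Krt5, of skin and mammary basal cells, had 228 in fragmented, recovered 1 and 102 and 167 in controls 2 and 3, below 635 to 877 in fragmented, recovered 2 and 3 and control 1. Summed over 8 mammary epithelium genes, values were 27108, 30178 and 33155 in fragmented, recovered 1 to 3. In controls 1 to 3 they were 35143, 8024 and 9877. Over 9 skin keratinocyte genes they were 3936.5, 5843 and 8032 against 6399, 1978 and 1916. For both lists fragmented, recovered 1 lay between controls 2 and 3 and the other libraries. Tendon genes had summed values of 99.1 to 286. The part of these tissues in the muscle values was not tested.

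**Figure D5:**
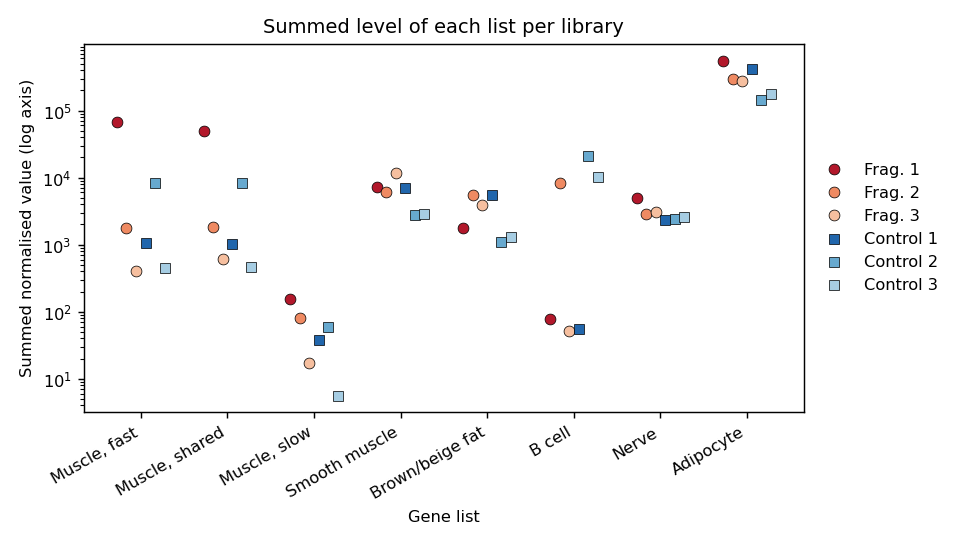
Points give the summed normalised value (log axis) of each gene list in each library, circles for fragmented, recovered mice and squares for controls. Fast and shared muscle genes span more than the smooth muscle, brown fat, nerve and adipocyte lists. B cell genes span a wider range still, from 52.4 in Frag. 3 to a highest value of 21133 in control 2, and are low in Frag. 1.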

How the data were processed

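Messenger RNA of inguinal fat was sequenced from 6 mice, 3 per group. Per the submitters' processing notes, CASAVA, HISAT2 2.0.5 and featureCounts 1.5.0-p3 were named, with build mm8, and strand use in counting is not given in the sources used here. The authors deposited a signal value per gene and library, which, judged from the steps between values, are reads scaled by 1 factor in each library. The smallest positive value of a column was taken as 1 read, and 100% of values were then whole within 0.02. Symbols came from an identifier table, with 33 identifiers unmatched. Transcript lengths came from GENCODE M21 and promoters from RefSeq (GRCm38.p6), builds other than mm8.

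limma 3.58.1 (R 4.3.3), with an intensity trend, was run on log2(value + 1) for 22290 genes with a mean of at least 1, at an FDR of 0.05, all 6 mice and no covariate. Fold changes on this scale understate changes of low genes. edgeR 4.0.16 and DESeq2 1.42.0 on recovered reads were alternatives, with other pseudocounts, filters, scaling, a replicate block and mice left out. The test was checked on simulated counts with less spread between mice than abundant members such as Myh4 had. Its power for such members was not measured. Antisense and near-identical genes could share reads. The members, lists and left-out libraries were chosen with earlier results of these data known. By rule, group differences are given for the 3 most abundant members of each list and the 4 adult heavy chains. Other members are given by library values, ranges and counts, and other lists by their 2 most abundant genes and a few further names listed with the rule. The limma p-values set a group difference against the spread between these mice, which limma estimates partly from other genes.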

Additional observations from a re-analysis of the deposited data

How the results depend on the processing

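With all 6 mice, 0 members and 0 genes passed with limma under pseudocounts of 0.1 and 10, no filter, a mean of at least 10, no trend, library-size scaling and the replicate block, and with edgeR and DESeq2. At an unadjusted p under 0.05 there were 1201 genes with limma, 1018 with edgeR and 1251 with DESeq2, and 1, 3 and 1 members. DESeq2 gave 118 adjusted p-values as NA. Among them were those of Myh4, Atp2a1, Myl1, Acta1, Ckm and Pygm, so these members could not pass with DESeq2. Leaving out each mouse gave 0 genes except without control 1, at 844, and 0 members in each such fit. With each mouse left out, medians ran from -0.77 to 3.95 for fast, -0.516 to 2.495 for shared and 0.74 to 2.28 for slow members. The slow median was 2.61 and 0.52 with pseudocounts of 0.1 and 10, and 0.45 without fragmented, recovered 1 and control 2 together, where Myl1 turned to -0.37 and Myh7 to 0.38. It stayed 1.51 with Myl2 at its bound. With a mouse left out, differences ran from -1.25 to 5.96 for Myh4, -0.78 to 4.91 for Atp2a1, -1.63 to 5.01 for Ckm, -0.52 to 2.74 for Acta1, -0.84 to 2.55 for Pygm and -0.77 to 1.34 for Myl1. Without control 3, Myh4, Atp2a1 and Ckm were at -0.43, -0.78 and -1.15.

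The labels give replicate numbers and state no pairing. Same-numbered mice had correlations of deviations of 0.177, 0.393 and 0.042. Fragmented, recovered 1 and 2 correlated best with the control of the same number. Fragmented, recovered 3 correlated best with control 1, at 0.208. Whether mice were paired by number is not settled by these values. With the replicate number as a block, limma passed 0 genes and 0 members, with a smallest adjusted p of 0.0705 over all genes. At an unadjusted p under 0.05 there were 6 of 29 members and 2676 of 22290 genes. Without the block there were 1 member and 1201 genes.

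Without Eno3, Pygm, Mb and Atp2a1 the read shares were 0.524%, 0.0196% and 0.00513% in fragmented, recovered 1 to 3 and 0.00954%, 0.0779% and 0.00398% in controls. Without Mybpc1 and Myh2 the slow share was 0.0851% and 3.74% in fragmented, recovered 1 and 2 and 0.694% in control 2, and it was 0.407% there with the longest transcript. Of the alternatives, 252 values stayed on the same side and direction or within the spread, 14 moved and 11 turned. Most fast genes had 12 reads or fewer in fragmented, recovered 3 and control 3, libraries no shallower than control 2, and their values there are imprecise. The cause of these shifts was not tested.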
